A study of Mus musculus with 12 samples.

Results

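Polycomb repressive complex 2 (PRC2) is the enzyme that places methyl groups on lysine 27 of histone H3, a mark of silent developmental genes. Ezh2 or its relative Ezh1 holds the active site, Eed and Suz12 complete the core, and the histone-binding proteins Rbbp4 and Rbbp7 join it. Accessory proteins divide the complex into forms: Mtf2 and Phf19 mark the form named PRC2.1, and Jarid2 and Aebp2 mark the form named PRC2.2. PRC2 is known to be needed for embryonic stem cells to differentiate properly, and these 10 genes were taken by name from the 14042 genes with a read assigned to an mRNA. They held 3675 of the 4274320 reads kept, and 8 of them, all but Ezh1 and Phf19, reached the 30 reads over the libraries that the test asked for, as did 9309 genes in all.

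The cells were P19, a mouse embryonal carcinoma line of wild-type genotype, which is a single tumour line and not a tissue. D0 cells grew undifferentiated in serum-containing medium. D2, D4 and D6 cells had spent 2, 4 and 6 days in NDiff medium with 500 nM retinoic acid on poly-L-lysine, which drives them towards neurons, and medium and retinoic acid always changed together. Each day had 3 libraries, and their native poly(A) RNA was read by nanopore direct RNA sequencing, in which 1 read is 1 RNA molecule captured at its tail.

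Libraries held 120326 to 613756 kept reads, and D2 was the shallowest day. By the library labels each of the 13 sequencing runs held a single day, so day and run cannot be told apart. Run names were not used for grouping: D2 appears in the names of the D0 runs, and no day appears in those of 2 D6 runs. The labelled cells and direction were checked with marker genes. The summed level of 9 embryonal carcinoma markers was 1998 to 2231 normalised read counts (CPM, reads per 1000000 after scaling) on D0 and 130 to 218 later. Of these 9, 3 were already at 0 on D0, and 7, 8 and 7 were at 0 on D2, D4 and D6. The 10 neuron markers summed to 585 to 619 CPM on D0, 383 to 571 on D2, 1542 to 1721 on D4 and 3068 to 3122 on D6. All D2 libraries were thus below all D0 libraries, with 1 marker called higher and 2 lower. On D4, 9 markers were higher, and on D6 all 10 were. The 13 markers of cycling cells summed to 3416 to 3599 CPM on D0, 4184 to 4398 on D2, 3209 to 3501 on D4 and 2282 to 2468 on D6, with 10 of 13 lower on D6 and 6 of 13 when libraries were scaled by their totals. Astrocyte, endoderm, mesoderm and fibroblast markers summed to at most 78.3 CPM in any library. The part of these marker changes in the PRC2 results was not tested. In such bulk RNA, fewer cells of a type and less RNA per cell cannot be told apart.

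The calls of PRC2 mRNAs differed by gene and day. Apart from the ratios of paired members given below, differences between members were not tested. Jarid2 fell on D2, D4 and D6, Suz12 fell on D4, and Rbbp4 rose on D6. Ezh2, Eed, Rbbp7, Aebp2 and Mtf2 passed the test at no day. By limma-voom with Benjamini-Hochberg adjustment over all genes, 0 of 8 members were higher and 1 was lower on D2, beside 4.69% and 6.11% of all 9309 genes. On D4, 0 were higher and 2 lower, beside 12.9% and 12.5%. On D6, 1 was higher and 1 lower, beside 19% and 18.8%. The unadjusted test at 0.05 gave the same counts on all 3 days, and limma-trend gave them except that none was lower on D6. The 3 comparisons share the D0 libraries. The median log2 fold change of the 8 members was -0.13 on D2, -0.20 on D4 and -0.26 on D6, beside -0.04, 0.01 and -4.8e-06 for all genes. With scaling by library totals alone the median of all genes stood at 0.13, 0.12 and 0.26 on those days, and on D6 it turned the 1765 higher and 1751 lower genes into 2588 and 1162.

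**Figure D1:**
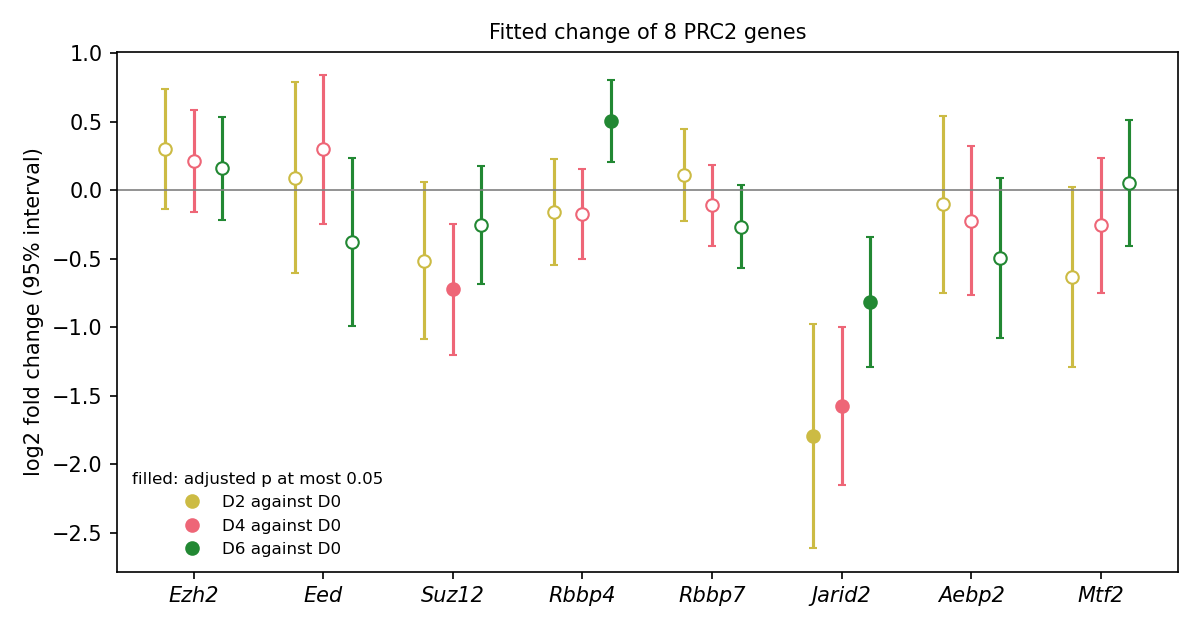
Log2 fold change against D0 of the 8 tested PRC2 genes on D2, D4 and D6, with bars giving 95% confidence intervals from limma-voom. Jarid2 lies below 0 on all 3 days (-1.79, -1.57 and -0.81), Rbbp4 lies above 0 on D6 (0.50), Suz12 lies below 0 on D4 (-0.72), and all other intervals include 0.

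Levels were compared per molecule, since a read stands for a whole RNA whatever its length. On D0 the order ran from Rbbp4 (233 ± 45.2 CPM, SD, n = 3) and Rbbp7 (224 ± 17.6) through Ezh2 (112 ± 11.8), Suz12 (89.9 ± 8.48), Jarid2 (87.2 ± 5.68), Mtf2 (63.8 ± 8.49), Aebp2 (54.1 ± 1.01) and Eed (43.5 ± 10.7) to Ezh1 (11.3 ± 3.75) and Phf19 (3.10 ± 3.71). The libraries of Rbbp4 and Rbbp7 overlapped, as did those of Ezh2 with Suz12 and of Suz12 with Jarid2, while every other neighbour in the order was separate. Ezh1 and Phf19 were so only by 7.29 against 7.21 CPM, on a few reads each, so their order is not resolved. Rbbp4 and Rbbp7 stood at the 93.2 and 92.9 percentile of the genes tested. On D6 Rbbp4 was first with no library overlapping Rbbp7, and Jarid2, above Mtf2 on D0, was below it without overlap.

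**Figure D2:**
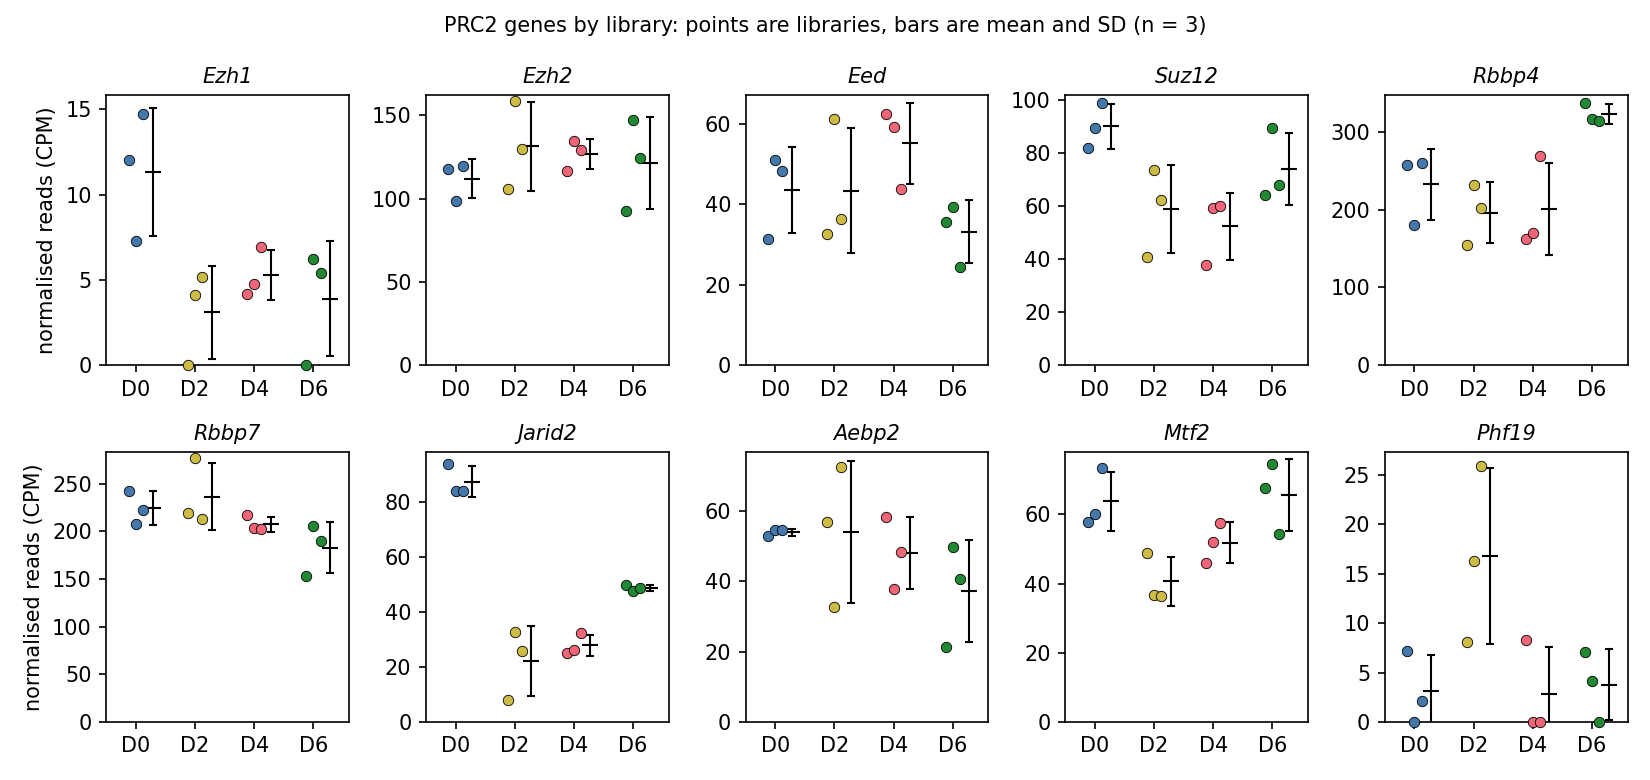
Normalised reads (CPM) of the 10 PRC2 genes in each of the 12 libraries, by day; points are libraries and bars give mean and SD (n = 3), cut at 0 where they would pass it. Jarid2 sits at 83.9 to 93.8 CPM on D0 and at 8.14 to 49.8 CPM afterwards, and Rbbp4 sits at 314 to 338 CPM on D6, above all D0 libraries.

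The reads that end at a poly(A) tail also show where each mRNA was cut. The 30 bases before the ends that carry most reads of Ezh2, Rbbp4, Jarid2 and Suz12 are shown because the results below turn on them; they were read from GRCm38 on the coding strand with GENCODE vM21 transcripts. Capitals mark the poly(A) signal AATAAA. All lie in the 3′ untranslated region, and the distance given is from the stop codon.
Ezh2, chr6:47530281-47530310, minus strand, 260 nt after the stop: caaatttgAATAAAgaatacttgaacttgt
Rbbp4 proximal, chr4:129309517-129309546, minus strand, 575 nt: gcttataatggAATAAAttgcttttctata
Rbbp4 distal, chr4:129307100-129307129, minus strand, 2992 nt: tggggatccatatacataAATAAAcctttt
Jarid2 proximal, chr13:44920268-44920297, plus strand, 345 nt: actgttgaggAATAAAggctttttaaccca
Jarid2 middle, chr13:44921239-44921268, plus strand, 1316 nt: tggAATAAAaaagggaaactgttttcacaa
Jarid2 distal, chr13:44921605-44921634, plus strand, 1682 nt: tactacaaggtttaatAATAAAaagttttt
Suz12, chr11:80034073-80034102, plus strand, 1912 nt: gattttgtacataaagttcaataatataaa
Over the 10 genes, 25 ends had at least 10 reads, and 17 of the 25 windows held AATAAA or ATTAAA on the transcript strand. Among windows at the most common end of each of 12154 transcripts with at least 30 reads, 81.8% did. On the other strand the same words were in 3 of 25 and in 8.72%. Overlapping matches were allowed. The Suz12 window held neither word.

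Ezh2, the main methyltransferase of dividing cells, passed the test at no day. Its CPM was 118, 98.4 and 120 on D0, 106, 159 and 130 on D2, 117, 135 and 129 on D4, and 92.6, 147 and 125 on D6. The D0 range overlapped that of each later day. Log2 fold changes were 0.30 (95% interval -0.14 to 0.74) on D2, 0.21 (-0.16 to 0.58) on D4 and 0.16 (-0.22 to 0.53) on D6, with limma-voom adjusted p of 0.437, 0.438 and 0.541. With 1 library left out they ranged from 0.19 (without D2 replicate 2) to 0.41 on D2, from 0.11 (without D0 replicate 2) to 0.27 on D4, and from 0.021 (without D6 replicate 2) to 0.30 (without D6 replicate 1) on D6. Scaled by totals, the D6 change was 0.42 (limma-voom adjusted p = 0.0710), and thinned to the smallest library it was -0.056 (adjusted p = 0.921). In single runs of at least 100000 reads, with no scaling factor, Ezh2 had 94.7 to 112 reads per 1000000 on D0 (3 runs), 100.2 to 154 on D2 (2 runs), 119 to 132 on D4 (3 runs) and 119.7 to 134 on D6 (2 runs). On that scale the D4 and D6 runs lay above the D0 runs.

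The Ezh2 reads themselves differed between days. Their median aligned length was 900, 1050 and 1272 nt in the D0 libraries, 1163, 1353 and 1576 on D2, 2527, 2502 and 1695 on D4, and 1793, 1536 and 2066 on D6. All D4 and D6 libraries were above all D0 libraries, and D2 overlapped D0. Over all genes the library medians were 649 to 729 nt on D0 and 747 to 835 nt on D4 and D6. Rbbp7 showed the same order, with 1213 ± 216 nt on D0 and 1793 ± 59.8, 1861 ± 13.8 and 1828 ± 73.3 nt later (SD, n = 3), while Rbbp4 stood at 549 ± 71.5 nt on D0 and 529 ± 65.3 nt on D6.

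A read's mapping quality tells how uniquely it fits 1 transcript, other isoforms of its own gene included. For Ezh2 the share of reads with a quality of at least 10 was 9.71 ± 5.87% on D0, 25.5 ± 5.39% on D2, 38.5 ± 11.6% on D4 and 29.7 ± 8.65% on D6 (SD, n = 3). When only such reads were counted, Ezh2 was higher on D2 (log2 fold change 1.72, limma-voom adjusted p = 0.0227), D4 (1.98, adjusted p = 0.000617) and D6 (1.70, adjusted p = 0.00275), on 125 of its 521 reads. Among the 6720 genes tested on such reads, 3.94% were higher and 4.52% lower on D2, 11.9% and 12.7% on D4, and 16.9% and 15.5% on D6. The part of read length in that difference was not tested. Quality left few reads for Suz12 (12 of 311), Eed (3 of 187) and Jarid2 (29 of 225), and nearly all for Rbbp7 (859 of 895) and Rbbp4 (954 of 1037).

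Ezh1, the methyltransferase better known from non-dividing cells, was rare. It had 5, 4 and 7 reads in the D0 libraries, 0, 1 and 1 on D2, 1, 2 and 3 on D4, and 0, 3 and 2 on D6. Pooled by day, these were 11.1 CPM (exact Poisson 95% interval 6.35 to 18.0) on D0, 3.56 (0.432 to 12.9) on D2, 5.47 (2.01 to 11.9) on D4 and 4.42 (1.43 to 10.3) on D6. Every D0 library was above every later library, but all later libraries held 3 reads or fewer, so no fold is given. In the fit without a filter on reads, Ezh1 passed at no day (limma-voom adjusted p = 0.227, 0.380 and 0.0763). Intervals and floors cover counting error only.

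Eed, which binds the methylated histone tail, and Suz12, which holds the complex together, form the rest of the core. Eed stood at 31.3, 51.0 and 48.3 CPM on D0, 32.6, 61.1 and 36.3 on D2, 62.5, 59.1 and 43.8 on D4, and 35.6, 39.4 and 24.4 on D6, with every day overlapping D0. Its log2 fold changes of 0.09, 0.30 and -0.38 did not pass (limma-voom adjusted p = 0.917, 0.458 and 0.345). With 1 library left out they ranged from 0.10 (without D0 replicate 1) to 0.47 (without D4 replicate 3) on D4. On D6 leaving out D0 replicate 1 gave -0.56 and leaving out D6 replicate 3 gave -0.15, the ends of the range. Of its 187 reads, 86 lay on a transcript absent from the reference annotation used here, and so only 101 could be given an end on the genome.

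Suz12 fell on D4. It stood at 81.7, 89.3 and 98.7 CPM on D0, 40.7, 73.4 and 62.2 on D2, 37.5, 59.1 and 59.9 on D4, and 64.1, 89.2 and 67.8 on D6. The D2 and D4 libraries were all below the D0 libraries, and D6 overlapped D0. The log2 fold change was -0.72 (SE 0.24, limma-voom adjusted p = 0.0185) on D4, which is 1.65-fold lower, and -0.51 (adjusted p = 0.275) on D2 and -0.26 (adjusted p = 0.369) on D6. With reads of all quality tags the D2 change passed (-0.83, adjusted p = 0.0331). The D4 call was lost without D0 replicate 3 (-0.66, adjusted p = 0.0640), without D4 replicate 1 (-0.58, adjusted p = 0.0875), with scaling by totals (-0.61, adjusted p = 0.0521) and with libraries thinned to the smallest (-0.73, adjusted p = 0.206). Nearly all Suz12 reads, 303 of 311, ended at the place shown above.

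Rbbp4 and Rbbp7 are related histone-binding proteins that PRC2 shares with deacetylase and chromatin-assembly complexes. Rbbp4 rose on D6. Its CPM was 257, 180 and 260 on D0, 155, 232 and 202 on D2, 163, 170 and 270 on D4, and 338, 317 and 314 on D6. All D6 libraries were above all others, and D2 and D4 overlapped D0. The rise on D6 was 0.50 on the log2 scale (SE 0.15, limma-voom adjusted p = 0.00533), 1.42-fold, and without D0 replicate 2, the lowest D0 library, it was 0.34 (adjusted p = 0.109); thinned to the smallest library it was 0.43 (adjusted p = 0.181). From D4 to D6 it was 0.68 (SE 0.16, adjusted p = 0.00286), 1.60-fold, where 1 of 8 members was higher and 0 lower beside 4.04% and 4.39% of all genes; limma-trend gave the same counts, and the unadjusted test at 0.05 gave 2 and 1. Within single runs of at least 100000 reads, Rbbp4 had 187 to 227 reads per 1000000 of the run, with no scaling factor, on D0 (3 runs) and 339 to 342 on D6 (2 runs).

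Rbbp7 did not rise with it. It stood at 243, 208 and 223 CPM on D0, 220, 277 and 213 on D2, 217, 203 and 203 on D4, and 153, 205 and 190 on D6. The D6 libraries were all below the lowest D0 library, but the log2 fold change of -0.27 (95% interval -0.57 to 0.04) did not pass (limma-voom adjusted p = 0.163). Scaled by totals the D6 change of Rbbp7 was -0.0051 (limma-voom adjusted p = 0.981), and with 1 library left out it ranged from -0.33 to -0.17. Its other changes were 0.11 on D2 (adjusted p = 0.747) and -0.11 on D4 (adjusted p = 0.638).

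Jarid2, a DNA- and RNA-binding partner that helps PRC2 find its targets, had the largest changes of the 8 tested members. The libraries held 39, 46 and 40 Jarid2 reads on D0, 1, 8 and 5 on D2, 6, 11 and 14 on D4, and 14, 23 and 18 on D6. In CPM these were 93.8, 83.9 and 84.0 on D0, 8.14, 32.6 and 25.9 on D2, 25.0, 26.0 and 32.2 on D4, and 49.8, 47.7 and 48.8 on D6. All D0 libraries were above all later ones, and all D6 libraries were above all D2 and D4 libraries. Jarid2 was 3.47-fold lower on D2 (log2 fold change -1.79, SE 0.41, limma-voom adjusted p = 0.00122), 2.98-fold lower on D4 (-1.57, SE 0.29, adjusted p = 1.49e-05) and 1.76-fold lower on D6 (-0.81, SE 0.24, adjusted p = 0.00455). Leaving out any 1 library kept each of these calls, with changes of -2.07 to -1.47, -1.70 to -1.51 and -0.83 to -0.75. The D6 call was lost with scaling by totals (-0.55, adjusted p = 0.0551) and with limma-trend (-0.81, adjusted p = 0.0738). With every library thinned to the depth of the smallest, all 3 calls were lost, at -1.74 (adjusted p = 0.0920), -1.15 (adjusted p = 0.144) and -0.56 (adjusted p = 0.391). The return from D4 to D6, 0.76 on the log2 scale (95% interval 0.13 to 1.40), did not pass (adjusted p = 0.133).

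In single runs of at least 100000 reads, Jarid2 had 59.2 to 91.0 reads per 1000000 of the run, with no scaling factor, on D0 (3 runs), 24.7 to 27.3 on D2 (2 runs), 23.4 to 33.2 on D4 (3 runs) and 50.3 to 61.1 on D6 (2 runs). The D0 and D6 runs thus overlapped on this scale, while D2 and D4 runs lay below both. Between D2 and D4, 0 of 8 members passed in either direction by limma-voom, by limma-trend or at an unadjusted p of 0.05, beside 2.03% higher and 1.08% lower among all genes.

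Aebp2, the other PRC2.2 protein, is a zinc finger factor and passed the test at no day at full depth. It stood at 52.9, 54.7 and 54.6 CPM on D0, 57.0, 32.6 and 72.6 on D2, 58.4, 37.8 and 48.4 on D4, and 21.4, 49.8 and 40.7 on D6. Only D6 was wholly below D0, and the log2 fold changes of -0.10, -0.22 and -0.50 had limma-voom adjusted p of 0.889, 0.596 and 0.181. With 1 library left out they ranged from -0.33 (without D4 replicate 1) to -0.05 (without D4 replicate 2) on D4 and from -0.73 (without D6 replicate 2) to -0.24 (without D6 replicate 1) on D6. With libraries thinned to the smallest, the D6 change was -1.70 and passed (limma-voom adjusted p = 0.0182). Thinning was a single random draw, and how far another draw would differ was not tested. Whether Aebp2 and Jarid2 differed in their change was not tested.

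Mtf2 and Phf19 are Polycomb-like proteins of PRC2.1 that bind methylated histone and CpG-rich DNA. Mtf2 stood at 57.7, 60.2 and 73.5 CPM on D0, 48.8, 36.7 and 36.3 on D2, 45.8, 52.0 and 57.6 on D4, and 67.6, 74.7 and 54.2 on D6. Its D2 and D4 libraries were below all D0 libraries, yet the log2 fold changes of -0.63 (95% interval -1.29 to 0.02), -0.26 and 0.05 did not pass (limma-voom adjusted p = 0.230, 0.482 and 0.887).

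Phf19 had 3, 0 and 1 reads on D0, 1, 4 and 5 on D2, 2, 0 and 0 on D4, and 2, 2 and 0 on D6. Pooled by day this was 2.78 CPM (exact Poisson 95% interval 0.756 to 7.11) on D0 and 17.8 (8.55 to 32.8) on D2. In CPM the D2 libraries were above all D0 libraries. The lowest of them, at 8.14 CPM, held 1 read, and the highest D0 library, at 7.21 CPM, held 3. That separation thus rests on depth, and such counts do not order the libraries. In the fit without a filter, which tested 14042 genes and called 6.44% of them higher on D2, Phf19 was higher on D2 (limma-voom adjusted p = 0.0169) and not on D4 or D6. That call rests on 10 reads against 4, with 3 reads or fewer in every D0 library, so no fold is given.

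Ratios of paired members within a library need no scaling between libraries, and 9 such comparisons were tested by exact permutation (two-sided), which can reach no p below 0.1 with 3 libraries against 3. Ezh1 made up 9.03 ± 2.03% of the reads of both methyltransferases on D0, 2.12 ± 1.95% on D2, 3.97 ± 0.962% on D4 and 2.74 ± 2.37% on D6 (SD, n = 3). Every later library was below every D0 library, on 0 to 3 Ezh1 reads each, so no log2 difference is given (exact p = 0.1 each, 0.129 after Benjamini-Hochberg adjustment).

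Rbbp7 made up 49.4 ± 3.79% of Rbbp7 and Rbbp4 reads on D0, 54.8 ± 3.74% on D2, 51.5 ± 7.55% on D4 and 36.03 ± 4.30% on D6 (SD, n = 3). The D6 libraries, at 31.2, 39.3 and 37.6%, were below all others, with a log2 ratio that differed from D0 by -0.79 (exact p = 0.1, adjusted 0.129). D2 and D4 overlapped D0 (exact p = 0.2 and 0.7).

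Jarid2 and Aebp2 together held 67.9 ± 2.79% of the accessory reads (the rest being Mtf2 and Phf19) on D0, 56.6 ± 4.17% on D2, 58.0 ± 2.77% on D4 and 55.4 ± 6.74% on D6 (SD, n = 3). Every later library was below every D0 library, and the log2 ratio differed from D0 by -0.70, -0.62 and -0.76 (exact p = 0.1 each, adjusted 0.129). With a mapping quality of at least 10 the D4 difference was -0.036. On D0, D2, D4 and D6, Jarid2 had 125, 14, 31 and 55 reads and Aebp2 had 78, 29, 51 and 45. Mtf2 and Phf19 together had 96, 32, 60 and 79.

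**Figure D3:**
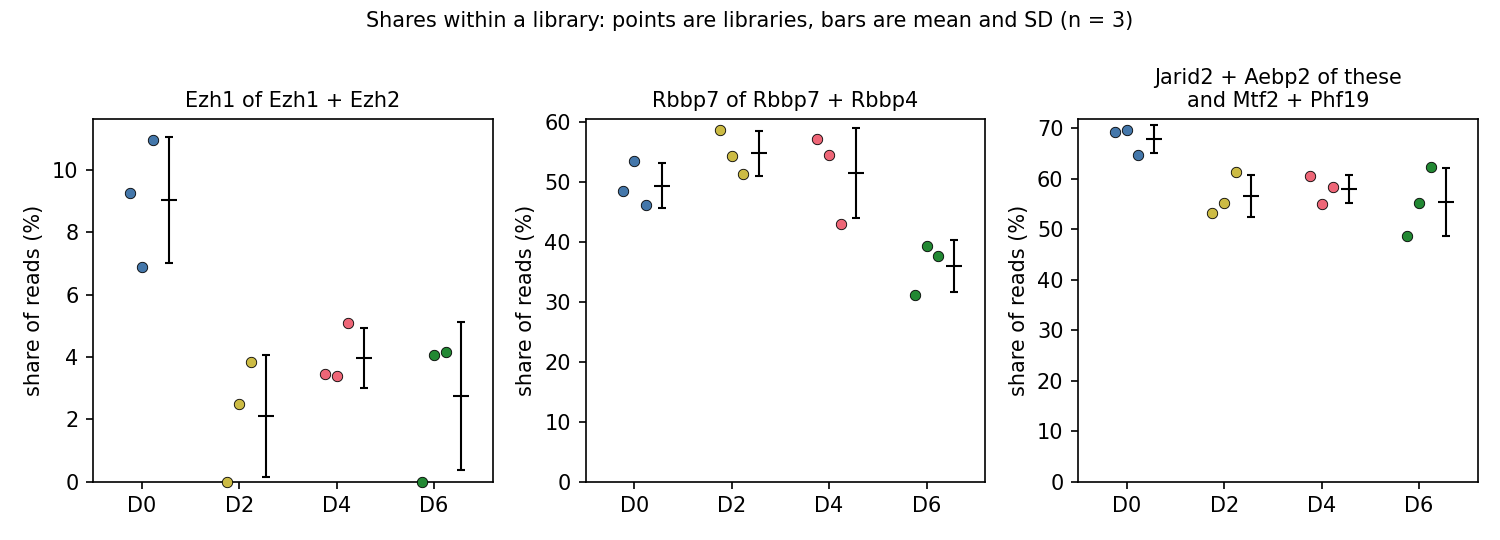
Share of reads (%) within a library for 3 pairs of PRC2 members, by day; points are libraries and bars give mean and SD (n = 3). The Ezh1 share drops from 9.03% on D0 to 2.12% on D2, the Rbbp7 share is lowest on D6 (36.03%), and the Jarid2 and Aebp2 share is highest on D0 (67.9%).

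Reads were also assigned to annotated transcripts, of which 36 of the 10 genes had a read and 17 had at least 30. On D2, 0 of these 17 were higher and 1 lower, beside 3.42% and 3.78% of all transcripts tested. On D4, 0 were higher and 3 lower, beside 10.3% and 9.86%, and on D6 1 was higher and 1 lower, beside 14.6% and 15%. At an unadjusted p of 0.05, 1 was higher on each day and 3, 4 and 3 were lower.

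Of the Jarid2 reads, 120 lay on the protein-coding transcript ENSMUST00000173246.7 and 76 on ENSMUST00000174683.7, which is annotated as a retained intron. The first had 66 reads on D0, 6 on D2, 16 on D4 and 32 on D6, and was lower on D2 (log2 fold change -1.88, limma-voom adjusted p = 0.0198) and D4 (-1.51, adjusted p = 0.00284). The second had 50, 5, 5 and 16 reads, and was lower on D4 (-2.50, adjusted p = 0.00103) and D6 (-1.20, adjusted p = 0.0260). Its D6 call was lost without D0 replicate 1 (-0.90, adjusted p = 0.122), D6 replicate 1 (-1.10, adjusted p = 0.0696) or D6 replicate 2 (-0.87, adjusted p = 0.203). The call was also lost with scaling by totals (-0.95, adjusted p = 0.0858), with no filter on low counts (-1.22, adjusted p = 0.0579) and with replicate number as a block (-1.08, adjusted p = 0.0921). No read of this transcript reached a mapping quality of 10.

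The Rbbp4 transcript ENSMUST00000102598.3 carried 97.5% of that gene's reads and rose on D6 by 0.51 (limma-voom adjusted p = 0.0127), or by 0.35 (adjusted p = 0.135) without D0 replicate 2. Suz12 reads were divided between ENSMUST00000017692.14 (160 reads) and ENSMUST00000163272.1 (151 reads), and the second was lower on D4 (-0.89, adjusted p = 0.0464). Only 6.25% and 1.32% of these reads reached a mapping quality of 10, so their division between the transcripts is uncertain. Use of isoforms within a gene was tested by diffSplice for 15 transcripts of 6 members, and 0 passed on any day, beside 0.150%, 4.28% and 1.73% of all transcripts tested on D2, D4 and D6. At an unadjusted p of 0.05 there were 0, 2 and 0.

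Rbbp4 mRNA was almost always cut at the proximal end shown above, with 958 of 1037 reads there and 38 at the distal end. The distal end held 9.35, 7.07 and 8.06% of Rbbp4 reads on D0, 5.26, 1.75 and 0% on D2, 2.56, 0 and 2.56% on D4, and 1.05, 0.654 and 2.59% on D6. Every later library was below every D0 library. In counts this was 27 of 330 reads on D0, 2 of 115 on D2, 4 of 228 on D4 and 5 of 364 on D6. A count of 0 allowed up to 3 reads, so that the libraries at 0 were not distinguishable from a low share.

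The use of ends within a transcript was a test chosen after the data were seen. It took the end groups that the authors deposited for each transcript, not the ends joined within 25 nt, and covered 8 ends of 3 members. It called 0 on D2 and D4 and 1 on D6, beside 0.216%, 0.971% and 4.07% of the 3706 ends tested. At an unadjusted p of 0.05 there were 1, 3 and 3. The tested Aebp2 and Jarid2 transcripts had only 2 ends each, and the tests of such a pair mirror each other. Both Aebp2 ends count among those on D4, and both Jarid2 ends among those on D6. The distal Rbbp4 end was used less on D6 (log2 change -2.49, diffSplice adjusted p = 0.0204), with -1.69 (adjusted p = 0.446) on D2 and -2.23 (adjusted p = 0.149) on D4. The D6 call was lost without D6 replicate 1 (-2.47, adjusted p = 0.0586), 2 (-2.02, adjusted p = 0.167) or 3 (-2.92, adjusted p = 0.0531), and without D0 replicate 1 or 3 the end fell under 30 reads.

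**Figure D4:**
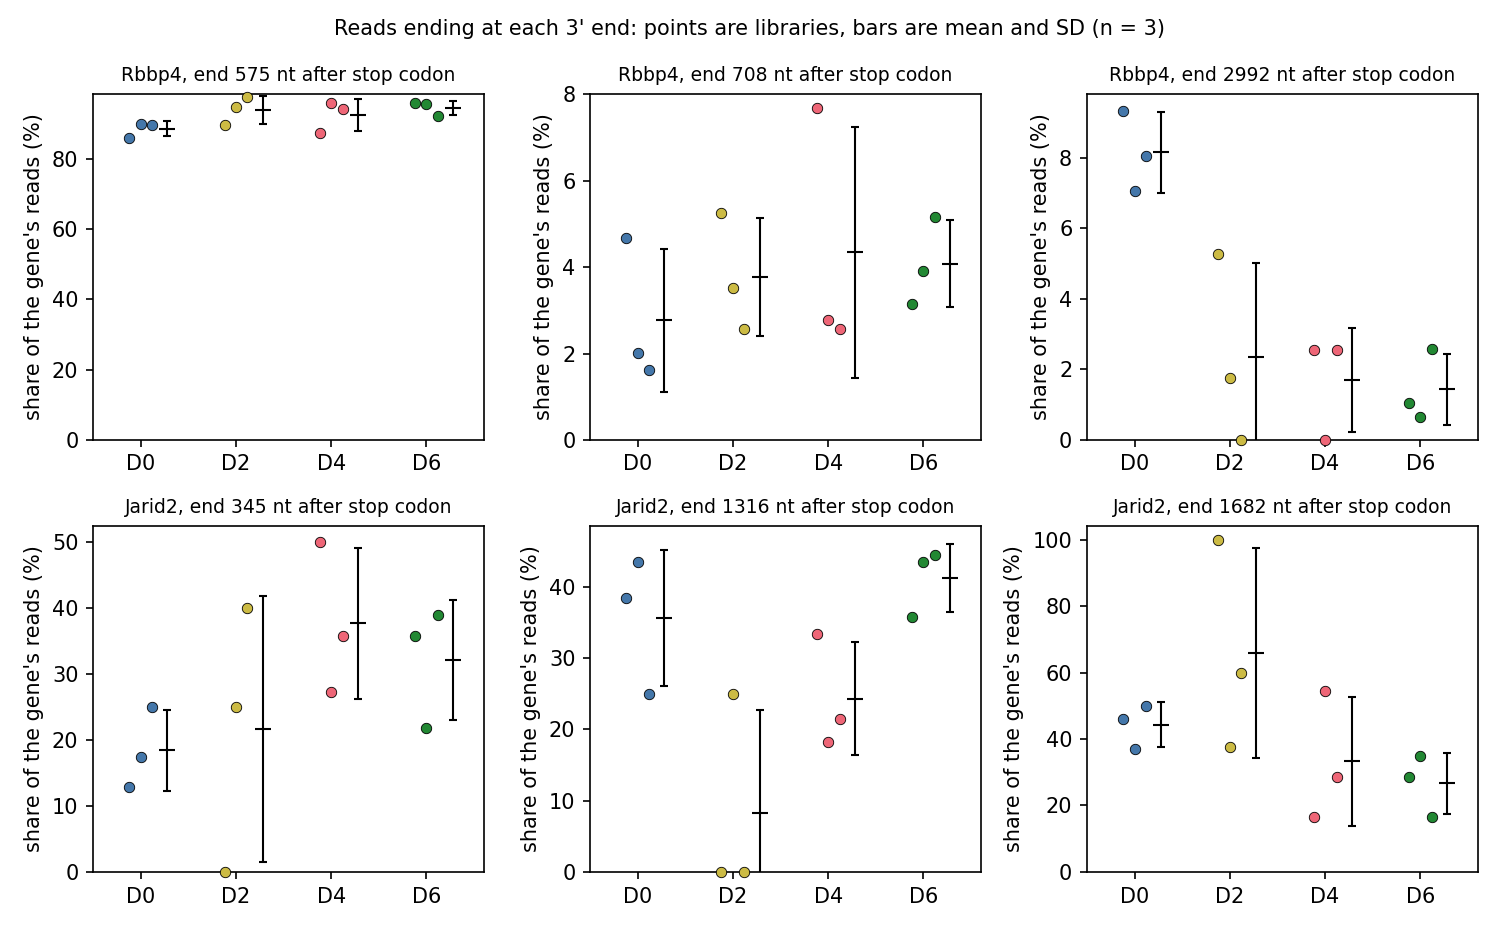
Share of a gene's reads (%) that stop at each 3′ end of Rbbp4 and Jarid2, by day; points are libraries and bars give mean and SD (n = 3), cut at 0 where they would pass it. The distal Rbbp4 end holds 7.07 to 9.35% on D0 and 0 to 5.26% later.

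Jarid2 used its ends more evenly. The proximal end held 55 reads, the middle 77 and the distal 88, and by day they had 23, 45 and 55 reads on D0, 4, 2 and 7 on D2, 11, 7 and 11 on D4, and 17, 23 and 15 on D6. Between the middle and distal ends, within ENSMUST00000173246.7, use shifted by 1.67 on the log2 scale towards the middle end on D6, which did not pass (diffSplice adjusted p = 0.187).

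Mtf2 had 6 ends with at least 10 reads. The full-length end, 2059 nt after the stop, held 96 of 247 reads, and 67 reads stopped at chr5:108073425-108073454 on the plus strand. The transcript used to describe that early end, ENSMUST00000131291.7, is annotated as processed, without a coding sequence. It held 50 reads in all, so not all 67 lay on it, and it runs 1915 bases beyond that end. The window before that early end held neither poly(A) signal, and 7 of the next 20 bases were A. Rbbp7 ended 379 nt after the stop in 863 of 895 reads and Ezh2 at the end shown above in 518 of 521.

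Poly(A) tails, which usually shorten as an mRNA ages, were measured on the same reads. On D0 the geometric mean tail was 138 nt for Mtf2, 126 for Aebp2, 125 for Suz12, 121 for Jarid2, 118 for Rbbp4, 104 for Eed, 97.2 for Ezh2 and 90.3 for Rbbp7, beside a median of 102 nt over 5972 genes. Mtf2 thus stood at the 98.4 percentile and Rbbp7 at the 16.5 percentile.

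Tail length was tested for 7 members, Jarid2 lacking 3 reads in a library, and limma called 0 on any day, beside 2.52%, 3.90% and 5.76% of 4205 genes on D2, D4 and D6. At an unadjusted p of 0.05 there were 3. Ezh2 tails were 18.2% longer on D2 (95% interval 0.0315 to 39.7, adjusted p = 0.544), Rbbp7 tails 14.7% longer on D4 (3.30 to 27.4, adjusted p = 0.188), and Mtf2 tails changed by -22.7% on D4 (-37.1 to -5.01, adjusted p = 0.217). The Mtf2 library medians were 141, 138 and 149 nt on D0, 96.0, 88.5 and 142 on D2, 92.1, 113 and 135 on D4, and 137, 153 and 107 on D6. All D4 libraries were below all D0 libraries, and D2 and D6 overlapped D0.

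Neither the share of tails of 30 to 90 nt nor that under 30 nt passed for any of the 7 members on D6 by limma, beside 3.83% and 1.59% of all genes, and at an unadjusted p of 0.05 there was 0 in either class. For Ezh2 the difference in the first share was 0.114 percentage points (95% interval -11.1 to 11.3), and for Rbbp4 it was 0.976 (-6.22 to 8.18).

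**Figure D5:**
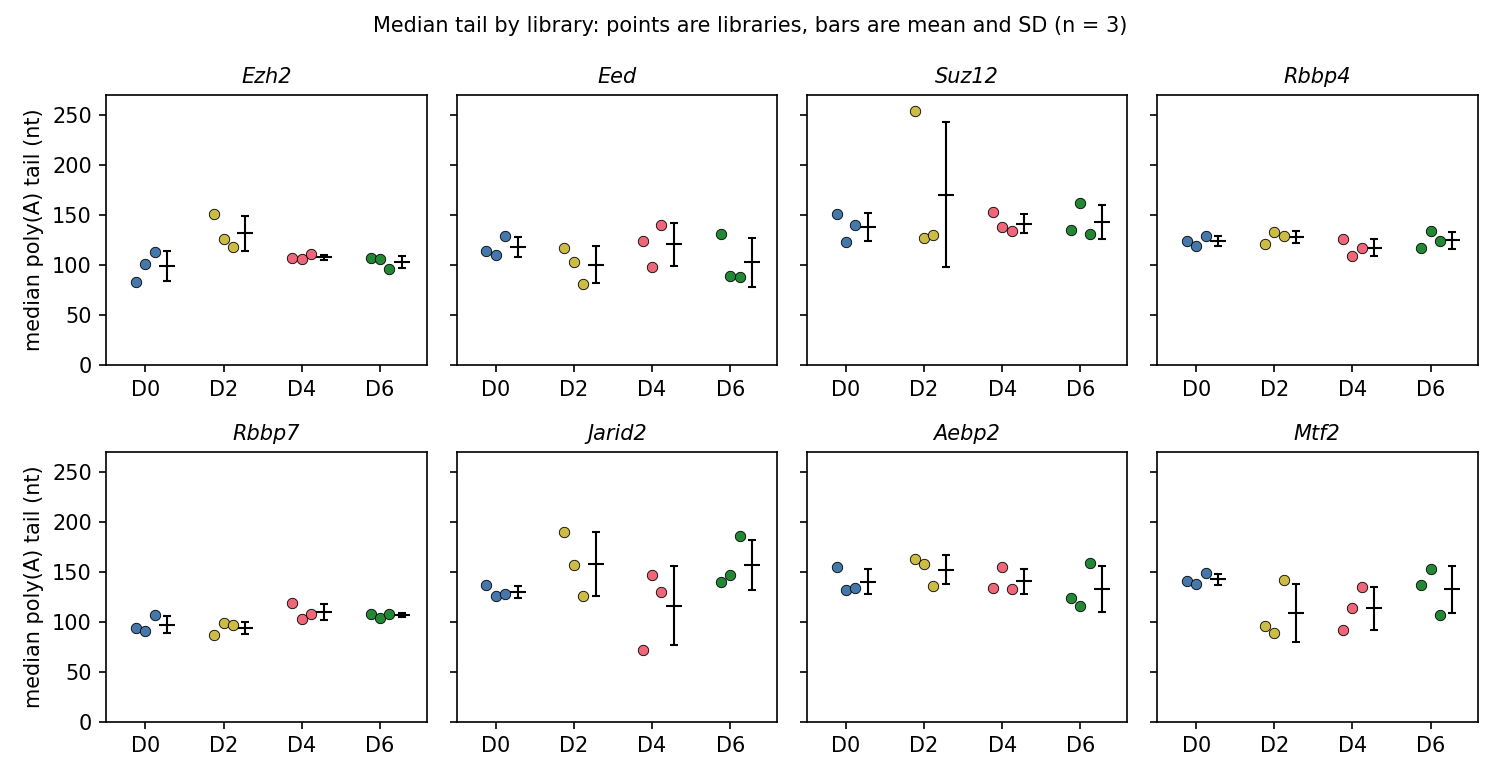
Median poly(A) tail (nt) of 8 PRC2 genes in each library, by day; points are libraries and bars give mean and SD (n = 3). Mtf2 libraries sit at 138 to 149 nt on D0 and at 92.1 to 135 nt on D4, and the Rbbp4 and Rbbp7 libraries spread least.

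Genes that work with or against PRC2 were counted for context, beside the shares of all genes given above for each day. Of 4 tested other parts of PRC2, Epop, which joins PRC2.1 to elongins, was lower on D4 (log2 fold change -0.99, limma-voom adjusted p = 0.00194) and D6 (-1.05, adjusted p = 0.000549), Eloc was higher on D2 (0.58, adjusted p = 0.0202), and Elob and Lcorl passed at no day. The median log2 fold change of the list on D6 was 0.21. With scaling by totals Elob and Eloc passed as higher on D4 (0.34 and 0.44, adjusted p = 0.00121 and 0.0243), and Elob, Eloc and Lcorl on D6. Kdm6a and Kdm6b, which remove the H3K27 mark, did not pass on any day (2 tested, limma-voom adjusted p of 0.411 to 0.897).

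PRC1, the second Polycomb complex, places ubiquitin on histone H2A. Of its 24 tested genes 1 was higher and 2 lower on D2, 3 and 4 on D4, and 6 and 4 on D6, or 10 and 4 with scaling by totals. Among all genes 4.69% were higher and 6.11% lower on D2, 12.9% and 12.5% on D4, and 19% and 18.8% on D6, or 27.8% and 12.5% by totals. The PRC1 median log2 fold change on D6 was 0.32. Phc1, a subunit that lets PRC1 assemble into larger bodies, was lower on all 3 days (log2 fold change -1.49, -1.43 and -1.25; limma-voom adjusted p = 2.32e-05, 6.18e-08 and 2.98e-07). Its relative Phc2 was higher on D6 (1.12, adjusted p = 8.30e-06) and Yaf2 on D2 (1.02, adjusted p = 0.00827) and D4 (0.69, adjusted p = 0.0333), while the ligase subunit Rnf2 stood at 0.26 on D6 (adjusted p = 0.367).

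Among 13 tested Trithorax and H3K36 methyltransferase genes, whose marks oppose PRC2, 1 was higher and 0 lower on D2, 2 and 1 on D4, and 2 and 1 on D6, or 5 and 0 with scaling by totals, beside 19% and 18.8% of all genes on D6, or 27.8% and 12.5% by totals. The median of the list on D6 was 0.69 on the log2 scale. Nsd2 was higher on all 3 days (0.83, 0.65 and 0.72; limma-voom adjusted p = 0.0151, 0.0177 and 0.00464). Dpy30 was lower on D4 (-0.58, adjusted p = 0.00280), also with scaling by totals, and on D6 (-0.52, adjusted p = 0.00424), where scaling by totals ended the call (-0.27, adjusted p = 0.129), and on D6 Ash2l and Men1 did not pass (adjusted p = 0.204 and 0.558).

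The other complexes that contain Rbbp4 or Rbbp7 were described by 18 genes. None passed on D2. On D4, 2 were higher and 5 lower, or 3 and 3 with scaling by totals, which called 1537 of all 9309 genes higher and 921 lower. On D6, 1 was higher and 7 lower, or 2 and 5 with scaling by totals. All genes gave 12.9% higher and 12.5% lower on D4 and 19% and 18.8% on D6, or 27.8% and 12.5% on D6 by totals. Their median log2 fold change on D6 was -0.35. Chd4 and Mbd3 of the NuRD complex stood at 0.05 and -0.11 on D6 (limma-voom adjusted p = 0.839 and 0.576). Hdac1, a deacetylase, was lower on D4 (-0.43, adjusted p = 0.0358; -0.32, adjusted p = 0.117 with scaling by totals) and D6 (-0.43, adjusted p = 0.0252; -0.17, adjusted p = 0.376 with scaling by totals), and Sin3b was higher on D4 (0.75, adjusted p = 0.000118). With scaling by totals Sap30 also no longer passed as lower on D4 (-0.44, adjusted p = 0.127), and Hdac2 passed as higher on D4 (0.48, adjusted p = 0.0104). Hdac2 was also the 1 gene called higher on D6 without that scaling (0.59, limma-voom adjusted p = 0.00104). On D6 scaling by totals made Sin3b pass as higher (0.54, adjusted p = 0.00493) and ended the lower call of Mta1 (-0.38, adjusted p = 0.137).

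The genes whose log2 CPM ran most like Ezh2 over the 12 libraries were Dag1 (Pearson r = 0.804), Ewsr1 (0.790) and Inip (0.775), of 2791 genes with a mean of at least 20 reads a library. For Ezh1 they were Slc39a7 (0.917), Bnip3l (0.899) and Tmem248 (0.877), with Ezh1 itself at 0 to 7 reads a library. The 100th gene in each order still had r of 0.499 for Ezh2 and 0.655 for Ezh1, and the 12 points share days and depth.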

How the data were processed

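Native poly(A) RNA of P19 cells was sequenced in 12 libraries (D0, D2, D4 and D6, 3 each). Per the methods, the authors used Guppy for base calling, minimap2 2.20 for alignment to mm10 with GENCODE vM17, Nanopolish for tails and Deeplexicon for barcodes. The deposited table has 1 line per alignment with the transcript, the tail length in nt, a mapping quality score and a barcode confidence given as a fraction by the authors. A further deposited table, with the authors' log2 fold changes and their p-values from DESeq2, was not used.

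Lines tagged PASS, of class mRNA and from nuclear genes (4274320 of 6306434 lines) were tallied per gene and transcript. Genes with at least 30 reads entered limma-voom (limma 3.58.1, R 4.3.3) with day as the only term. That model replaced the counting tools of the study, because the deposited table is not a count table. Factors were the trimmed mean of M-values (30% of ratios, 5% of levels), computed with the same formula outside the usual package, and a call needed an adjusted p of at most 0.05. Log2 values had a pseudocount of 0.5 reads. Tails were compared by limma on mean log2 length per library, weighted by reads, for genes with a mean of 10 reads and at least 3 in each library. Ends within 25 nt were joined for the ends shown, while the test of end use took the end groups deposited by the authors. Ratios were tested by exact permutation. The fits were tested on simulated data.

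All 10 members are named. Context lists are named by their 4 genes with most reads, and likeness by the 3 highest correlations. The members, lists and tests were chosen with earlier results of these data known. The p-values measure the spread between these libraries. Kept reads numbered 120326 to 613756 a library. Alternatives covered scaling, filters, variance model, read quality, thinning by a single random draw, replicate numbers and each library left out. For transcripts, ends and tails only D0 and D6 libraries were left out.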

Additional observations from a re-analysis of the deposited data

How the results depend on the processing

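Depth limited the members: D2 libraries held 1 to 8 Jarid2 reads, and Ezh1 and Phf19 stayed at 7 reads or fewer in every library. Thinned to the smallest library by a single random draw, 0 members were lower at D2 and D4 and 0 higher at D6. Jarid2 at D2 (-1.74) and Suz12 at D4 (-0.73) were near their values at full depth. At D6 Aebp2 (-1.70, limma-voom adjusted p = 0.0182) was called lower and Jarid2 (-0.56, adjusted p = 0.391) was not. How far another draw would differ was not tested. With a mapping quality of at least 10, 1 member was higher at D2, 1 at D4 and 2 at D6 (Ezh2, then with Rbbp4 at D6), 0 were lower at D2, D4 and D6 among the 5 members still tested, beside 3.94%, 11.9% and 16.9% of 6720 genes higher and 4.52%, 12.7% and 15.5% lower. Jarid2 (29 reads left), Suz12 (12) and Eed fell under 30 reads, so that their calls were not tested. With that filter 2 member transcripts were higher and 0 lower at D6, the log2 ratio of Ezh1 to Ezh2 differed by -0.86 at D2 and -2.81 at D4, and that of Jarid2 and Aebp2 to Mtf2 and Phf19 by -0.036 at D4. That filter left 5 Ezh1 reads with 0 at D4, so that the pseudocount sets the Ezh1 values and they bear on nothing. With no filter on low counts 1 member, Phf19, was higher at D2. With reads of all quality tags 2 were lower at D2, Suz12 being added (-0.83, limma-voom adjusted p = 0.0331). With library totals only, 1 member was lower at D4 and 0 at D6, and 0 member transcripts were lower at D6. With limma-trend 0 were lower at D6. The cause of these differences was not tested, beyond the fewer reads that thinning and the quality filter leave.

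Leaving out each of the 12 libraries in turn gave 1 to 2 members lower at D4 and 0 to 1 higher at D6. For transcripts only the 6 libraries of D0 and D6 were left out in turn, which gave 0 to 1 member transcripts higher and 0 to 1 lower at D6. Ends were likewise checked by leaving out D0 and D6 libraries only. The use of the distal Rbbp4 end ranged from -2.92 to -2.02 on the log2 scale over the 4 of these omissions that left it at 30 reads or more. It stayed called with 15 reads as the minimum and with the replicate block. These checks of ends were chosen after seeing the data.

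Replicate numbers did not pair the samples: deviations of the 18 same-number pairs correlated at -0.0402 to 0.0370, 0 above 0.1. The replicate block left the count of called genes among the members as it was, took the member transcripts lower at D6 to 0 (ENSMUST00000174683.7, -1.08, limma-voom adjusted p = 0.0921), and gave log2 tail differences at D6 of -0.0023 for Ezh2 and -0.0023 for Rbbp4.

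Reversed directions were of changes that passed neither at full depth nor under the setting that reversed them. With library totals only, the log2 fold change of Aebp2 at D2 became 0.065, of Rbbp4 at D2 0.023, of Rbbp7 at D4 0.0097 and of Suz12 at D6 0.00020. With a pseudocount of 2, Aebp2 at D2 became 0.11. Thinned, Ezh2 at D6 became -0.056, Mtf2 at D4 0.29, Rbbp4 at D2 0.088 and at D4 0.13, and Rbbp7 at D4 0.50. With a library left out, Aebp2 at D2 ranged from -0.37 to 0.39, Eed at D2 from -0.17 to 0.28 and Mtf2 at D6 from -0.048 to 0.21. Log2 tail differences at D6 became -0.096 with median tails for Aebp2 and -0.0073 with no weights for Rbbp4. With a library left out they ranged from -0.064 to 0.25 for Aebp2, from -0.045 to 0.084 for Ezh2, from -0.064 to 0.035 for Rbbp4 and from -0.073 to 0.15 for Suz12.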
